A study of Mus musculus with 15 samples.

Results

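The Ormdl genes and the enzymes of sphingolipid synthesis that follow them were examined in mouse embryonic stem cells (ESCs) depleted of TET1 or TET2. The 8 genes, which are the members of this set, were Ormdl1, Ormdl2, Ormdl3, Sptlc1, Sptlc2, Degs1, Ugcg and Sgms1. They were named with earlier results of these data known, and all 8 were found among the 26061 genes of the expression table. Ormdl2 was selected on its RNA level in shTet2 against shScr, which fell upon TET2 depletion, and the other members were set beside it as its paralogues, the enzyme they restrain and later steps of the pathway. The fall of Ormdl2 in shTet2 is therefore a description here and not a finding, and no test is given for any member between shTet2 and shScr. Tests were kept for the 8 members between shTet1 and shScr, and for the 7 members other than Ormdl2 between shTet2 and shTet1. The first of these shares the shScr libraries with the comparison that chose Ormdl2, so for Ormdl2 it is not independent of the choice. The second shares the shTet2 libraries with that comparison, and its 7 members were also chosen with earlier results known.

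The cells were E14 ESCs, a 129/Ola line grown without feeders, in 3 groups of 5 libraries. Every group received a lentiviral pLKO.1 short hairpin RNA (shRNA) followed by 3 days of drug selection. The hairpin was non-targeting in shScr, against Tet1 in shTet1 and against Tet2 in shTet2. Each TET gene was targeted by a single hairpin, so that effects of a hairpin and of the loss of its target cannot be told apart, and nothing in the labels says whether the 5 libraries of a group came from separate cultures. The p-values below thus measure only the spread between these libraries, which may be technical.

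TET enzymes oxidise the methyl group of methylated cytosine in DNA. ORMDL proteins are small membrane proteins of the endoplasmic reticulum that bind serine palmitoyltransferase and hold back its activity when sphingolipids are plentiful. Serine palmitoyltransferase, whose core is formed by SPTLC1 and SPTLC2, joins serine to palmitoyl-CoA in the committed step of sphingolipid synthesis. DEGS1 then desaturates dihydroceramide to ceramide, UGCG adds glucose to ceramide, and SGMS1 converts ceramide to sphingomyelin in the Golgi.

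Library depth was 15258291 to 35432425 recovered gene reads, and the fewest reads behind any value of a member were 123, for Ormdl3 in shTet2 replicate 3. Tet2 in shTet2 averaged 26.6% of its normalised reads in shScr, and Tet1 in shTet1 averaged 27.8%. The ESC markers Pou5f1, Sox2 and Zfp42 were high in every library (lowest log2 value 13.37, for Sox2), and the summed normalised reads of 7 ESC markers were 80040 to 90520 in shScr, 89200 to 99020 in shTet1 and 71270 to 81480 in shTet2. The sums of the ESC markers did not overlap between shTet1 and shTet2, whereas those of the other cell types, given next, were low and overlapped between all groups. The sum of 4 primitive endoderm markers was 98.3 to 302.3 in shScr, 86.9 to 149.9 in shTet1 and 29.2 to 127.9 in shTet2, that of 4 fibroblast markers 59.0 to 190.0, 107.2 to 156.2 and 153.2 to 209.3, and that of 4 trophoblast markers 99.9 to 432.4, 196.0 to 268.5 and 142.3 to 723.4. Of these 19 markers, the trophoblast gene Eomes alone passed a test, between shTet2 and shTet1 (log2 difference −0.94, limma, Benjamini-Hochberg adjusted p = 0.0185), and no marker was at 0 reads in all libraries. The part of such cells in the results of the members was not tested. In 4 libraries (shScr replicate 4, shTet1 replicates 3 and 4, and shTet2 replicate 4) olfactory and vomeronasal receptor genes took 54.5 to 64.7 ppm of the gene reads, against 11.1 to 26.5 ppm in the other 11, and results were also computed without them. A principal component with 37.9% of the variance within groups separated replicates 1 and 2 from replicates 3 to 5 in each group. The labels name no batch, and differences within these sets of replicates are given where they bear on a member.

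The hairpin targets are shown because a short hairpin can also act on other transcripts through its seed. Capitals mark the 7 target bases that pair with bases 2 to 8 of the antisense strand of the hairpin.
shTet1 target in Tet1: tttcaactccgacGTAAATAt
shTet2 target in Tet2: ttcggaggagaagGGTCATAa
The shTet1 target lies in the 3′ UTR of Tet1 (chr10:62275116-62275136, mm9, minus strand) and the shTet2 target in the coding sequence of Tet2 (chr3:133132417-133132437, mm9, minus strand). In the transcripts of 22611 coding genes, each whole target was found in its own gene alone. The 7 bases of the shTet2 target occurred in 7.49% of these genes and those of the shTet1 target in 16.1%. None of the coding transcripts of the Ormdl genes (1 for Ormdl1, 2 for Ormdl2 and 1 for Ormdl3) held the shTet2 seed match. Annotated exons outside coding transcripts were not searched. The longest run that Ormdl2 shared with the shTet2 target was 7 bases. Among the members, Degs1 and Sptlc2 held the shTet2 seed match once each, in the coding sequence and the 3′ UTR. Both sites are printed with the bases upstream, and capitals mark the match.
Degs1 site: tggactggaaatgGGTCATAt
Sptlc2 site: tcttcatatggtcGGTCATAg
The Degs1 match lies at chr1:184209722-184209728 and the Sptlc2 match at chr12:88650189-88650195 (mm9, minus strand for both). The shTet1 seed match was found in Ormdl1, Sptlc2, Degs1 and Ugcg. These matches are a description of the letters, and whether a hairpin acted on any of these transcripts was not tested.

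Ormdl2 (chr10:128254513-128258687, mm9, minus strand, protein coding) was clearly separated in the TET2-depleted cells. On the variance-stabilised log2 scale, its levels in replicates 1 to 5 were 10.09, 10.21, 10.63, 10.18 and 10.49 in shScr. In shTet1 they were 9.76, 9.78, 10.33, 9.97 and 10.43. In shTet2 they were 8.91, 8.69, 8.95, 8.88 and 9.29. Every shTet2 library lay below every library of the other groups, and the shTet1 and shScr libraries overlapped. Normalised reads averaged 1255 ± 211 in control cells and 1048 ± 238 upon TET1 depletion (SD, n = 5 each). Upon TET2 depletion they averaged 460.0 ± 78.9, or 36.7% of the control level. In bulk RNA, less Ormdl2 RNA per cell and fewer cells that express it cannot be told apart.

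The difference that led to the choice of Ormdl2, shTet2 minus shScr, was −1.38 on the log2 scale (SE 0.16), and 4 of the 19490 genes tested had a lower one. It was −1.35 within replicates 1 and 2 and −1.39 within replicates 3 to 5, and −1.40 without the 4 libraries rich in receptor reads. The difference from shTet1 was −1.11 (SE 0.16), also a description because it rests on the same shTet2 libraries. Between shTet1 and shScr, Ormdl2 was lower in shTet1 in 5 of 5 same-numbered pairs. This comparison reuses the shScr libraries on which Ormdl2 was chosen, and a control level that was high among them would lower both differences. The difference of −0.26 (SE 0.16, 95% confidence interval −0.61 to 0.08) did not pass the threshold (limma, Benjamini-Hochberg adjusted p = 0.575).

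**Figure D1:**
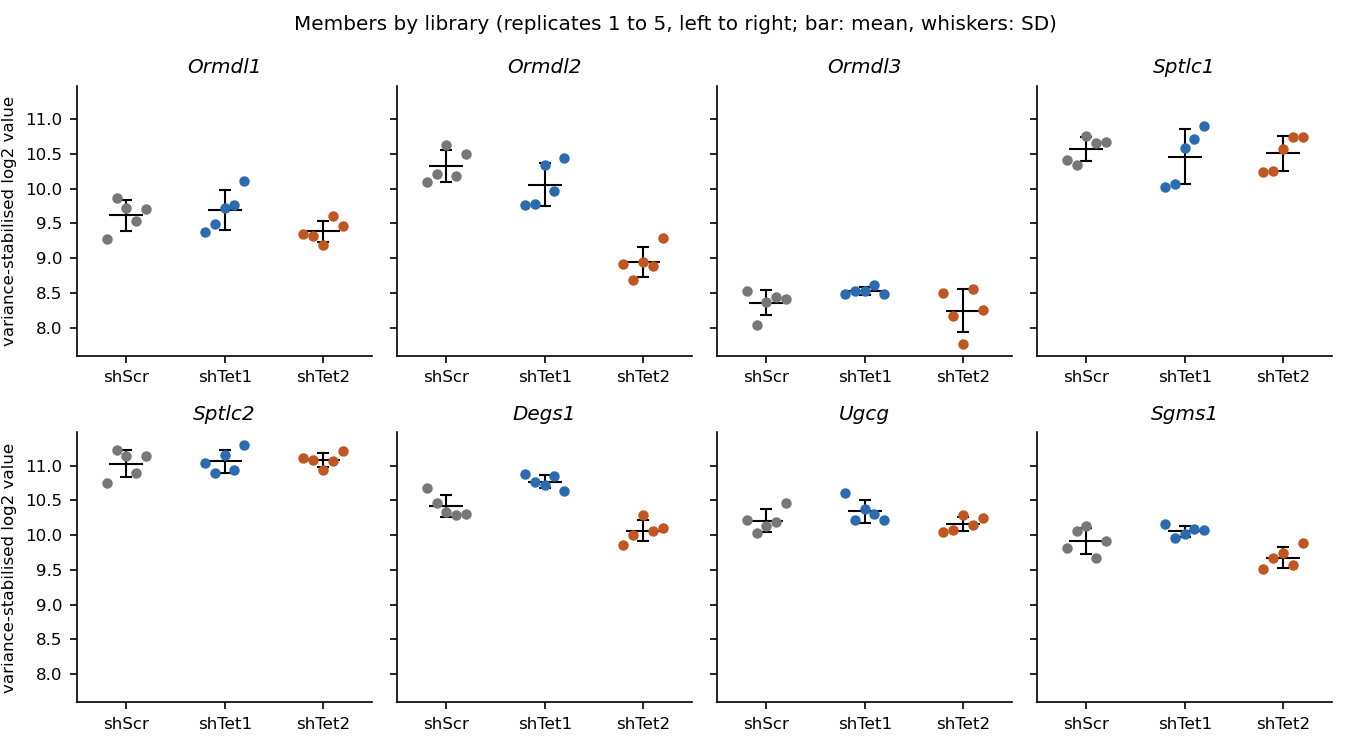
Variance-stabilised log2 values (y axis) of the 8 members in shScr, shTet1 and shTet2 (x axis), with 1 point per library, the mean as a bar and the SD as whiskers (n = 5 per group). Ormdl2 in shTet2 lies between 8.69 and 9.29, below all other libraries. Degs1 in shTet2 lies between 9.86 and 10.29, also below them all, though its highest library is only narrowly below the lowest shScr library.

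The ORMDL paralogues are close in sequence. Each of the 3 coding sequences translates to 153 residues, and the proteins were 81.7% identical for ORMDL1 and ORMDL2, 83.7% for ORMDL1 and ORMDL3, and 83.0% for ORMDL2 and ORMDL3. In their coding transcripts, however, none of the 50-base stretches of any member was found on the same strand in another coding gene. Reads of that length from these transcripts could thus be told apart between the paralogues. Exons outside coding transcripts and pseudogenes were not searched, and the overlap of Ormdl2 with a gene on the opposite strand is given below.

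Ormdl1 (chr1:53353939-53367153, plus strand) was spread over overlapping ranges in the 3 groups. Its log2 levels in replicates 1 to 5 were 9.27, 9.86, 9.71, 9.54 and 9.70 in shScr. They were 9.37, 9.48, 9.72, 9.76 and 10.11 in shTet1. The shTet2 libraries had 9.34, 9.32, 9.19, 9.60 and 9.46. The highest shTet2 library thus lay within the shScr range and within the shTet1 range. The log2 difference was 0.07 between shTet1 and shScr (95% confidence interval −0.25 to 0.39, limma, Benjamini-Hochberg adjusted p = 0.914). Between shTet2 and shTet1 it was −0.31 (−0.62 to 0.01, adjusted p = 0.353), with shTet2 lower in 5 of 5 same-numbered pairs. The untested difference of shTet2 from shScr was −0.23 (SE 0.15).

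Ormdl3 (chr11:98442570-98448682, minus strand), the paralogue whose human counterpart is known from genetic studies of childhood asthma, had the lowest log2 values of the members. In shScr they were 8.53, 8.04, 8.37, 8.45 and 8.42. In shTet1 they were 8.48, 8.52, 8.53, 8.62 and 8.49, and in shTet2 8.49, 8.16, 7.77, 8.55 and 8.25. The shTet1 libraries were tightly grouped (SD 0.05), whereas those of shTet2 were widely spread (SD 0.31) and overlapped both other groups. The log2 difference was 0.17 between shTet1 and shScr (95% confidence interval −0.16 to 0.49, limma, Benjamini-Hochberg adjusted p = 0.742) and −0.28 between shTet2 and shTet1 (−0.60 to 0.04, adjusted p = 0.407). From shScr, shTet2 differed by −0.12 (SE 0.15).

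Levels of different genes can be set side by side only per length, and were taken as normalised reads per kb of exon. By this measure Ormdl2 was the most abundant of the 8 members in shScr, at 611 ± 103, followed by Sptlc1 at 567 ± 69.3 and Degs1 at 515 ± 60.9 (SD, n = 5). The ranges of neighbours in that order overlapped for these 3 genes. Below a gap came Sptlc2 at 254 ± 34.5 and Ugcg at 221 ± 26.2, which overlapped, and then Ormdl1 at 160 ± 25.1, Ormdl3 at 135 ± 18.2 and Sgms1 at 90.8 ± 12, each overlapping the next. In shTet1, Ormdl2 held the third place at 510 ± 116, its range overlapping that of Sptlc1 above it at 538 ± 145, and Degs1 came highest at 661 ± 44.5. In shTet2, Ormdl2 held the fourth place at 224 ± 38.4, between Sptlc2 at 262 ± 18.6 and Ugcg at 213 ± 15.6, and its range overlapped both.

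By this measure of length, Ormdl2 made up most of the Ormdl RNA in control cells. The shares, sums and ratios below rest on the long exon length taken for Ormdl1. With the length of its coding transcript the share of Ormdl2 would be lower. The value of Ormdl2 may also include reads of Dnajc14, as described below. Its share of the summed reads per kb of the 3 genes was 67.2% ± 2.75 in shScr against 60.9% ± 3.4 in shTet1 (SD, n = 5 each), and it was 46.4% ± 5.63 in shTet2. The sum itself was 906 ± 115 in shScr against 832 ± 148 in shTet1, and it was 483 ± 57.8 upon TET2 depletion. Without Ormdl2, the sum of Ormdl1 and Ormdl3 was 295 ± 13.3, 322 ± 37.4 and 259 ± 41.7 in the same order, and the shTet2 libraries, at 199.7 to 311.7, spanned the shScr range of 274.9 to 308.9. Relative to the summed reads per kb of Sptlc1 and Sptlc2, the Ormdl sum was 1.10 ± 0.05 in shScr and 1.05 ± 0.08 with the Tet1 hairpin, against 0.599 ± 0.06 with the Tet2 hairpin. The highest shTet2 library reached a ratio of 0.695 and the lowest library of the other groups 0.936. These sums contain Ormdl2 and its selected fall, and are given without a test. They count RNA and not protein.

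**Figure D2:**
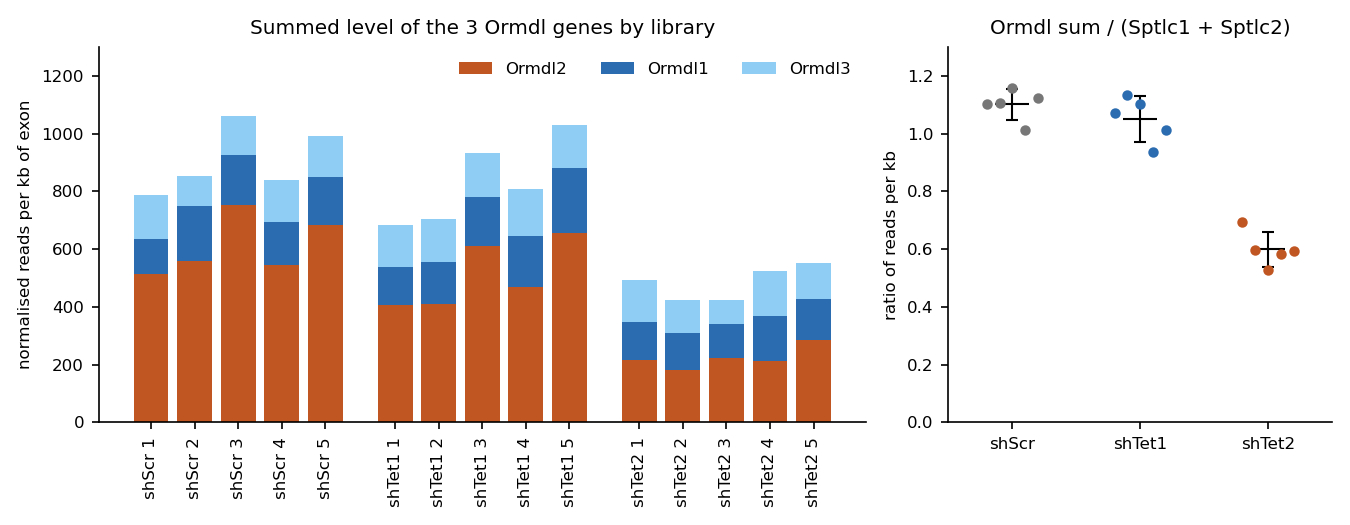
Left, normalised reads per kb of exon (y axis) of Ormdl2, Ormdl1 and Ormdl3 stacked for each of the 15 libraries; right, the ratio of their sum to that of Sptlc1 and Sptlc2 (y axis) by group, with the mean as a bar and the SD as whiskers (n = 5). The summed level is 422 to 550 in shTet2 and at least 684 in the other libraries, and the ratio is 0.527 to 0.695 in shTet2 against 0.936 to 1.16.

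Neither core subunit of serine palmitoyltransferase passed the test. Sptlc1 (chr13:53428085-53472734, minus strand) had log2 levels of 10.41, 10.35, 10.75, 10.65 and 10.67 in shScr. They were 10.03, 10.06, 10.58, 10.72 and 10.90 in shTet1. The shTet2 libraries had 10.23, 10.25, 10.57, 10.74 and 10.74. Replicates 1 and 2 were the lowest in all 3 groups, and the groups overlapped over most of their ranges. The log2 difference was −0.11 between shTet1 and shScr (95% confidence interval −0.47 to 0.26, limma, Benjamini-Hochberg adjusted p = 0.880) and 0.05 between shTet2 and shTet1 (−0.32 to 0.41, adjusted p = 0.949). Both changed sign under some alternatives.

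Sptlc2 (chr12:88646008-88729305, minus strand) was the flattest member. Its log2 levels were 10.75, 11.22, 11.13, 10.89 and 11.14 in shScr. They were 11.04, 10.89, 11.15, 10.93 and 11.30 in shTet1, and the shTet2 libraries had 11.10, 11.08, 10.93, 11.07 and 11.21. The shTet2 range lay inside that of shScr. The log2 difference was 0.03 between shTet1 and shScr (95% confidence interval −0.23 to 0.29, limma, Benjamini-Hochberg adjusted p = 0.957) and 0.02 between shTet2 and shTet1 (−0.24 to 0.28, adjusted p = 0.980), and both changed sign under median centring. From shScr, shTet2 differed by −0.06 for Sptlc1 (SE 0.17) and by 0.05 for Sptlc2 (SE 0.12).

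Degs1 (chr1:184205903-184212935, minus strand), the dihydroceramide desaturase, was the member that separated the knockdowns in a comparison open to a test. Its log2 levels were 10.67, 10.46, 10.34, 10.29 and 10.31 in shScr. In shTet1 they were 10.87, 10.77, 10.72, 10.85 and 10.64. In shTet2 they were 9.86, 9.997, 10.29, 10.06 and 10.10. Every shTet2 library was below every shTet1 library. Every one was also below every shScr library, but narrowly, with 10.288 in shTet2 replicate 3 against 10.295 in shScr replicate 4. A single shTet1 library, replicate 5, lay under the highest shScr library.

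Degs1 fell by 0.71 on the log2 scale in shTet2 relative to shTet1 (SE 0.12, 95% confidence interval −0.96 to −0.46, limma, Benjamini-Hochberg adjusted p = 0.00150). Its exact two-sided permutation p was 0.00794, unadjusted, which is the smallest that 5 against 5 libraries can give. Any gene whose groups do not overlap reaches this value, as did Sgms1 in the same comparison, and 6.04% of all genes tested had such groups. Normalised reads of Degs1 were 1712 ± 115 in shTet1 and 1037 ± 117 in shTet2, against 1334 ± 158 in shScr (SD, n = 5 each). The call held under each alternative fit run. The shTet1 libraries were higher than shScr by 0.36 on average (95% confidence interval 0.11 to 0.60) and in 5 of 5 same-numbered pairs, a difference that missed the threshold over all genes (limma, Benjamini-Hochberg adjusted p = 0.219; 0.0708 with the replicate block). From shScr, the shTet2 libraries differed by −0.35 (SE 0.12), by −0.64 within replicates 1 and 2 and by −0.16 within replicates 3 to 5. The comparisons share libraries, so that the value of shTet1 relative to shScr and that of shTet2 relative to shTet1 are not independent.

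Ugcg and Sgms1, the enzymes that take ceramide to glucosylceramide and sphingomyelin, differed less. Sgms1 (chr19:32197217-32464204, minus strand) had log2 levels of 9.81, 10.05, 10.14, 9.67 and 9.92 in shScr. They were 10.16, 9.95, 10.01, 10.09 and 10.07 in shTet1. The shTet2 libraries had 9.51, 9.66, 9.74, 9.57 and 9.89. The shTet2 libraries lay below all shTet1 libraries and overlapped shScr. The log2 difference of −0.38 between shTet2 and shTet1 (SE 0.12, 95% confidence interval −0.64 to −0.13) did not pass the threshold (limma, Benjamini-Hochberg adjusted p = 0.0933), but passed with the replicate number as a block (adjusted p = 0.0283). The replicate numbers were taken to pair these groups, as same-numbered libraries deviated together, though neither the main fit nor the exact test uses the pairs. Between shTet1 and shScr the log2 difference of Sgms1 was 0.14 (−0.12 to 0.40, limma, Benjamini-Hochberg adjusted p = 0.723), and shTet2 differed from shScr by −0.24 (SE 0.12).

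Ugcg (chr4:59202129-59235705, plus strand) had log2 levels of 10.22, 10.04, 10.13, 10.18 and 10.47 in shScr. They were 10.60, 10.21, 10.37, 10.31 and 10.21 in shTet1, and the shTet2 libraries had 10.05, 10.07, 10.28, 10.15 and 10.24. The 3 ranges overlapped. The log2 difference was 0.13 between shTet1 and shScr (95% confidence interval −0.12 to 0.38, limma, Benjamini-Hochberg adjusted p = 0.737), −0.18 between shTet2 and shTet1 (−0.43 to 0.07, adjusted p = 0.539) and −0.05 between shTet2 and shScr (SE 0.12).

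**Figure D3:**
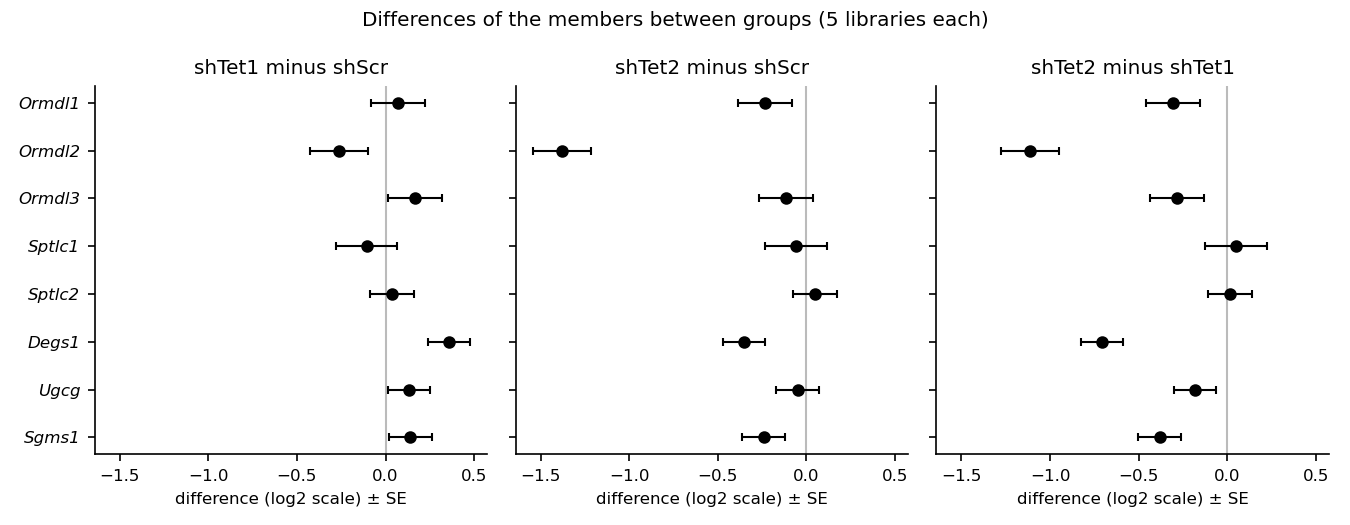
Differences between groups on the log2 scale (x axis, with SE as whiskers) for the 8 members (y axis) in the 3 comparisons of 5 libraries each. Ormdl2 lies at −1.38 and −1.11 in the panels with shTet2, Degs1 lies at 0.36, −0.35 and −0.71 from left to right, and Sptlc1 and Sptlc2 stay within 0.11 of 0.

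In all, 0 of the 8 members passed the threshold between shTet1 and shScr, where 0.0718% of the 19490 genes tested did. At an unadjusted p under 0.05 there was 1 by limma, Degs1, and there were 2 by the exact permutation test, Degs1 (p = 0.0159) and Ormdl3 (p = 0.0397). Between shTet2 and shTet1, 1 of the 7 members other than Ormdl2 passed, beside 4.24% of all genes tested. Groups that did not overlap were seen for Ormdl2 and, narrowly, for Degs1 between shTet2 and shScr (2.7% of all genes). They were seen for Ormdl2, Degs1 and Sgms1 between shTet2 and shTet1 (6.04%) and for 0 members between shTet1 and shScr (2.62%). Median centring moved the median difference of all genes between shTet2 and shScr from 0.04 to −0.07, a shift of −0.11, with the value of Ormdl2 at −1.48 after it.

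Ormdl2 shares its locus with neighbours on both sides. Exons of Dnajc14, which encodes an endoplasmic reticulum co-chaperone, cover 1559 of the 2055 exonic bases of Ormdl2 (75.9%) from the opposite strand. The libraries were directional, but whether the counting used the strand is not stated, so that reads of the genes in the shared bases may not have been told apart. Dnajc14 had log2 levels of 10.01, 10.04, 10.24, 10 and 10.23 in shScr. They were 9.84, 10.03, 10.28, 10.16 and 10.28 in shTet1, and the shTet2 libraries had 9.62, 9.64, 9.97, 9.81 and 10.26. Its groups overlapped, and its log2 difference between shTet2 and shScr was −0.24 (SE 0.14, 95% confidence interval −0.54 to 0.05, limma, Benjamini-Hochberg adjusted p = 0.544). Between shTet1 and shScr it was 0.01 (adjusted p = 0.988).

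The log2 value of Ormdl2 exceeded that of Dnajc14 by 0.22 ± 0.12 in shScr (SD, n = 5 each). The same difference was −0.06 ± 0.17 in shTet1 and −0.92 ± 0.12 in shTet2. Within groups, deviations of Ormdl2 and Dnajc14 from their group means had a Pearson r of 0.849 over the 15 libraries, which share their depth and possibly reads. Sgms1 is the other member with an overlap, of 10 exonic bases with 2700046G09Rik on the opposite strand (log2 difference −0.16 between shTet2 and shTet1).

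**Figure D4:**
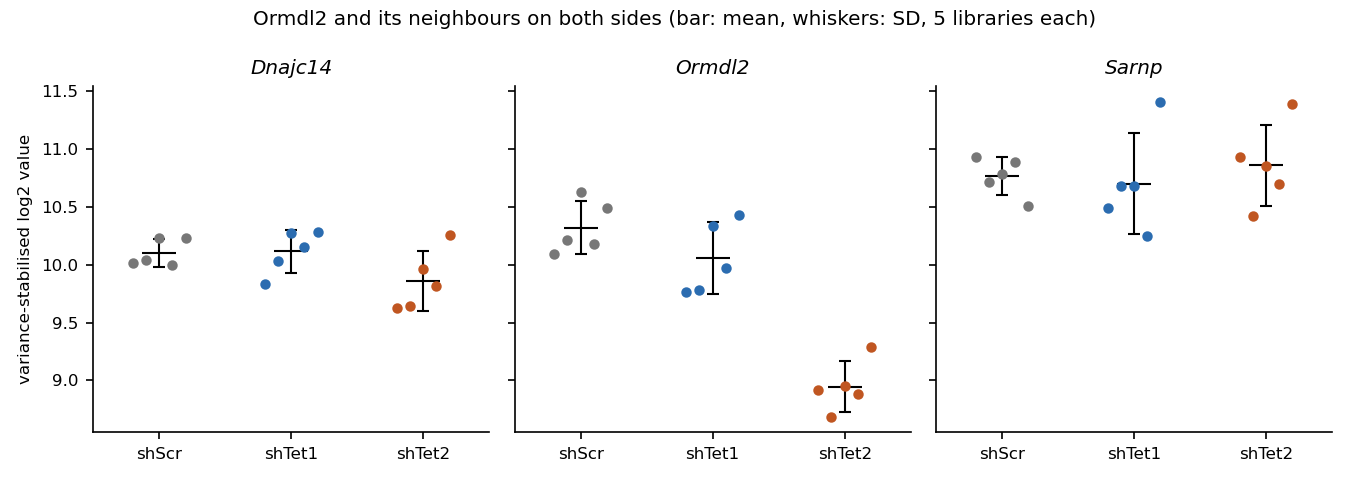
Variance-stabilised log2 values (y axis) of Dnajc14, Ormdl2 and Sarnp by group (x axis), with 1 point per library, the mean as a bar and the SD as whiskers (n = 5 per group). In shTet2, Ormdl2 does not overlap the other groups, whereas Dnajc14 and Sarnp do.

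On the other side, Sarnp, a gene of mRNA export, starts 140 bases from Ormdl2 and runs the opposite way, so that the pair share 1 short stretch between their annotated starts. It is shown because it is the promoter side of Ormdl2, with CpG dinucleotides, the sites that TET enzymes act on when methylated, in capitals.
Interval between Ormdl2 and Sarnp: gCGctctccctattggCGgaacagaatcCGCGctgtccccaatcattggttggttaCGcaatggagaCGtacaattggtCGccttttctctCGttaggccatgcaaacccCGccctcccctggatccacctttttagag
This interval (chr10:128258688-128258826, mm9, printed on the plus strand) holds 9 CpG in 139 bases. In the RefSeq promoters of GRCm38.p6, from 250 bases before to 50 after each start, the window of Ormdl2 held 19 CpG, against a median of 7 over 27025 promoters, and 28.4% of promoters held at least as many. The other members had 19 (Sptlc2) to 53 (Ugcg). No methylation was measured in these libraries.

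Sarnp overlapped between all 3 groups. Its log2 levels were 10.94, 10.72, 10.79, 10.89 and 10.51 in shScr. They were 10.49, 10.68, 10.69, 10.25 and 11.41 in shTet1, and the shTet2 libraries had 10.93, 10.42, 10.86, 10.70 and 11.39. Its log2 difference was 0.09 between shTet2 and shScr (SE 0.20, limma, Benjamini-Hochberg adjusted p = 0.917) and −0.07 between shTet1 and shScr (adjusted p = 0.945). Of the 11 table genes within 100 kb of Ormdl2 (Pmel, Dgka, Wibg, Mmp19, 1110012D08Rik, Dnajc14, Sarnp, Gdf11, Cd63, Rdh5 and Bloc1s1), 0 passed the threshold in any comparison (limma, Benjamini-Hochberg). At an unadjusted p under 0.05 there was 1, 1110012D08Rik between shTet1 and shScr. Their log2 differences between shTet2 and shScr ranged from −0.24 (Dnajc14) to 0.36 (Dgka).

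Among 12038 well-covered genes, those whose log2 values followed Ormdl2 most closely over the 15 libraries were l7Rn6 (Pearson r 0.987), Tet2 (0.955), Fam82a2 (0.937), 8030462N17Rik (0.930) and Zbtb43 (0.929). A gene that falls in shTet2 scores high by this measure through the groups alone. Within groups, the r with Ormdl2 was 0.907 for l7Rn6 and 0.587 for Tet2. l7Rn6, named Hikeshi in RefSeq, encodes a nuclear import carrier of heat shock proteins. Its log2 levels were 11.41, 11.46, 11.61, 11.22 and 11.65 in shScr. They were 10.98, 10.93, 11.42, 11.08 and 11.86 in shTet1, and the shTet2 libraries had 9.95, 9.80, 9.99, 10.07 and 10.46. Its shTet2 libraries did not overlap the others, and its log2 difference from shScr was −1.42 in shTet2 and −0.22 in shTet1, given as a description since likeness to Ormdl2 chose it. The 4 transcripts of l7Rn6 held no shTet2 seed match, and their longest run shared with the shTet2 target was 9 bases.

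The rest of the pathway was read from a list of 68 genes, all of which passed the filter on low values, and was counted over the 60 that are not members. Between shTet1 and shScr, 0 of 60 passed the threshold (limma, Benjamini-Hochberg) and 13 had an unadjusted p under 0.05 (21.7%, against 11.8% of all genes). The median log2 difference of the 60 genes was 0.11, against 0.01 over all genes. With the replicate block 7 passed, where 4.8% of all genes did. They included Sgpl1, S1pr2, Arsa and A4galt, with B4galnt1 and Cerk, a pair named after their values were seen.

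Between shTet2 and shScr, 1 of the 60, B3galnt1, passed and was lower in shTet2, where 0.39% of all genes passed. Between shTet2 and shTet1, 2 of the 60 passed (3.33%, against 4.24% of all genes), with B3galnt1 lower in shTet2 and Smpd3 higher. With the replicate block there were 7, where 11.2% of all genes passed. The median log2 difference of the 60 genes was 0.05 between shTet2 and shScr, against 0.04 over all genes, and −0.02 between shTet2 and shTet1, against 0.01 over all genes.

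**Figure D5:**
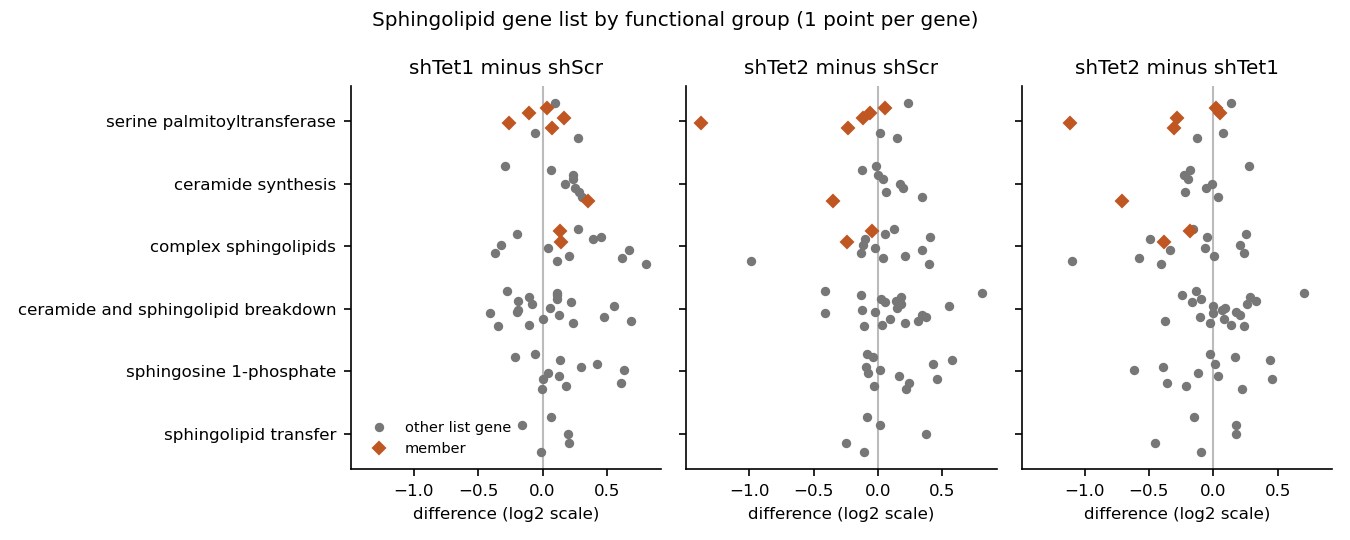
Log2 differences (x axis) of the 68 genes of the sphingolipid list in the 3 comparisons, by functional group (y axis), with 1 point per gene and the 8 members as diamonds. The points furthest to the left in the panels with shTet2 are Ormdl2, at −1.38 and −1.11, and B3galnt1, at −0.99 and −1.10.

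In the serine palmitoyltransferase group, Sptssa, a small subunit that raises the activity of the enzyme, was well covered, with 415 normalised reads per kb in shScr. Its log2 difference was 0.27 between shTet1 and shScr and −0.12 between shTet2 and shTet1 (limma, Benjamini-Hochberg adjusted p = 0.492 and 0.783). The alternative subunits Sptlc3 and Sptssb averaged under 3 normalised reads in each group, at most 2.79 for Sptlc3 and 1.14 for Sptssb.

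In ceramide synthesis, 1 of 9 genes, Degs1, passed between shTet2 and shTet1, and 0 passed between shTet1 and shScr. The ceramide synthase Cers5 had 408 normalised reads per kb in shScr and a log2 difference of −0.12 between shTet2 and shScr (limma, Benjamini-Hochberg adjusted p = 0.826). Cers6, another ceramide synthase, differed by −0.29 between shTet1 and shScr (adjusted p = 0.517) and by 0.28 between shTet2 and shTet1 (adjusted p = 0.456). Between shTet1 and shScr, 8 of the 9 genes had a positive difference, but Degs1 alone had an unadjusted p under 0.05 (limma). Cers1, Cers3 and Degs2, which are among the 8, averaged at most 17.1 normalised reads in any group. The median log2 difference of all genes was 0.01, and how many of all genes had a positive difference was not counted.

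In the group of complex sphingolipids, B3galnt1, which adds N-acetylgalactosamine to globotriaosylceramide to make globoside, was the list gene outside the members that fell in shTet2 in both comparisons. Its log2 levels were 8.65, 8.96, 9.20, 8.52 and 8.92 in shScr. In shTet1 they were 8.98, 9.09, 8.89, 8.82 and 9.02, and in shTet2 7.83, 8.24, 7.45, 7.83 and 7.97. All shTet2 libraries lay below all others, and the shTet1 libraries lay within the shScr range. Normalised reads averaged 430 in shScr, 462 in shTet1 and 200.2 in shTet2.

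B3galnt1 fell by 0.99 on the log2 scale between shTet2 and shScr (SE 0.16, limma, Benjamini-Hochberg adjusted p = 0.0131) and by 1.10 between shTet2 and shTet1 (SE 0.16, adjusted p = 0.000506). Without the 4 libraries rich in receptor reads its value against shScr was −1.06 and no longer passed (adjusted p = 0.0671), with 11 libraries left in the fit. A4galt, which makes the globotriaosylceramide that B3galnt1 uses, differed by 0.80 between shTet1 and shScr (SE 0.28, limma, Benjamini-Hochberg adjusted p = 0.242), with an adjusted p of 0.0381 with the replicate block. B4galt6, a lactosylceramide synthase, differed by −0.37 there (adjusted p = 0.415), and St8sia1, the synthase of ganglioside GD3, by 0.25 between shTet2 and shTet1 (adjusted p = 0.750).

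In the group of breakdown genes, Psap, the precursor of the saposins, had the most RNA, with 919 normalised reads per kb in shScr, and did not pass in any comparison. Smpd3, a neutral sphingomyelinase, passed between shTet2 and shTet1 but rested on few reads: 6, 4, 0, 0 and 0 in shScr, 4, 2, 3, 2 and 0 in shTet1, whereas the shTet2 libraries had 12, 22, 11, 22 and 6. Its log2 difference was 0.70 (SE 0.19, limma, Benjamini-Hochberg adjusted p = 0.0401), and it was not called without the receptor-rich libraries (adjusted p = 0.127). It kept its call without shTet1 replicate 3 or shTet2 replicate 5 and lost it without any of the other 8 libraries in turn (adjusted p up to 0.105), and also under median centring (adjusted p = 0.0578). Arsa, the lysosomal arylsulfatase, differed by 0.69 between shTet1 and shScr (adjusted p = 0.310, and 0.0135 with the replicate block), and Neu3, a ganglioside sialidase, by 0.33 between shTet2 and shTet1 (adjusted p = 0.400).

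In the sphingosine 1-phosphate group, Sgpl1, the lyase that ends the pathway, had 389 normalised reads per kb in shScr and 590 in shTet1. Its log2 difference was 0.63 between shTet1 and shScr (SE 0.22, limma, Benjamini-Hochberg adjusted p = 0.244) and −0.62 between shTet2 and shTet1 (adjusted p = 0.150), with adjusted p of 0.00471 and 0.000836 with the replicate block. S1pr2, a receptor of sphingosine 1-phosphate, differed by 0.61 between shTet1 and shScr (adjusted p = 0.227, and 0.0178 with the block), and its shTet1 libraries lay above all shScr libraries. The kinase Sphk2 and the aldehyde dehydrogenase Aldh3a2 were well within the spread, with adjusted p of at least 0.648 in each comparison.

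Among 5 transfer genes, Col4a3bp, which encodes the CERT protein that carries ceramide from the endoplasmic reticulum to the Golgi, had shTet2 libraries below all shTet1 libraries. The log2 difference was −0.45 (SE 0.14, limma, Benjamini-Hochberg adjusted p = 0.0715, and 0.0153 with the replicate block). It passed the test without shTet2 replicate 3 or shTet2 replicate 5 (lowest adjusted p 0.0454). From shScr it differed by −0.25 in shTet2 (adjusted p = 0.516). Plekha8 and Gltp, carriers of glucosylceramide and other glycolipids, and Cptp, the ceramide 1-phosphate carrier, did not pass in any comparison, with the lowest adjusted p at 0.464 for Gltp between shTet2 and shScr.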

How the data were processed

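Total RNA of 15 ESC libraries was depleted of rRNA and sequenced with directional libraries. The authors trimmed reads (Trim Galore 0.3.3), aligned them to mm9 (TopHat2 2.0.9), counted reads per gene in Seqmonk and normalised them with DESeq2. The deposited values are variance-stabilised and approach log2, with a minimum of 4.25 at 0 reads. Inverting the scale returned a whole number of reads for 100% of values (tolerance 0.001), hence depth and normalised reads. A deposited table of repeats was not used here.

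Members and gene lists were chosen with earlier results of these data known. Differences came from limma 3.58.1 (R 4.3.3; lmFit, eBayes with a variance trend, two-sided) in 1 fit of all 15 libraries with group as the only term. Genes above the minimum in at least 5 libraries were tested (19490), with Benjamini-Hochberg adjustment over all of them per comparison and a threshold of 0.05. The exact permutation test of 5 against 5 was computed for 15 member values. The fit was tested on simulated data. Named genes were the members, TET genes, genes that overlap a member or lie within 100 kb of Ormdl2, and the 5 genes most correlated with it. From the list of 68 pathway genes came those past the threshold and, per functional group, the 2 with most reads per kb and those with the largest difference each way between shTet1 and shScr and between shTet2 and shTet1. Of the 68 genes, 9 are in the table under older names. Some genes that met this rule are not reported here. Positions are from GENCODE vM1 (mm9).

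Same-numbered libraries deviated together across genes, with correlations of 0.374 to 0.657 for shTet1 with shScr and of 0.330 to 0.731 for shTet2 with shTet1, and their replicate numbers were therefore taken as pairs. Between shTet2 and shScr the correlation was 0.00789 for replicate 3, and the numbers were not taken to pair all libraries. Libraries correlated best with their own number in 9 of 10 cases for shTet1 with shScr. The count was 7 of 10 both for shTet2 with shTet1 and for shTet2 with shScr. The main fit and the exact tests do not use the pairs. With the replicate block, 935 rather than 14 genes passed between shTet1 and shScr, and 2178 rather than 827 between shTet2 and shTet1. Within groups, pairs of libraries correlated at 0.933 to 0.990, and their reads differed by more than counting error in all 30 pairs. Which of the RNA extraction kits in the labels served which library is not given there. Alternatives covered library scaling (median centring, quantile normalisation), array weights, low-value filters, fits without the variance trend or with only the groups compared, the replicate block, a term for replicates 1 and 2 against 3 to 5, the receptor-rich libraries, voom on recovered reads and each library left out in turn.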

Additional observations from a re-analysis of the deposited data

How the results depend on the processing

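The count of members past the threshold between shTet1 and shScr was 0 in all 21 alternatives, and that of members other than Ormdl2 between shTet2 and shTet1 was 1 in 19, with 2 under array weights and 2 under the replicate block (Sgms1 added). In the pathway list of 68 genes, which holds Ormdl2 and the other members, the 0 called between shTet1 and shScr became 7 with the replicate block and 1 with the term for replicates 1 and 2 against 3 to 5. Over all 19490 genes tested, the 14 called became 935 and 264. Between shTet2 and shScr, counted over the 60 genes that are not members, the 1 called became 3 with the replicate block. Over all 19490 genes tested, the 76 called became 840 there. Without the receptor-rich libraries B3galnt1 was not called. In that comparison the replicate numbers were not taken as pairs. Still, 7 of 10 libraries correlated best with their own number, as they did between shTet2 and shTet1. In the list of 68, the 4 between shTet2 and shTet1 became 8 with array weights, 10 with the replicate block and 7 with the replicate term. Over all 19490 genes tested, the 827 called became 1246, 2178 and 1263 in the same order. The counts in the list hold Ormdl2, and are no test of it. In the comparisons tested for the members, the replicate block changed no other call. Leaving out each library in turn gave 0 to 0 calls in the list between shTet1 and shScr. Between shTet2 and shTet1 it gave 3 to 5, Ormdl2 included, and among the members tested 0 and 1. Between shTet2 and shScr, B3galnt1 kept its call each time.

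Small differences changed sign. For Sptlc1, shTet2 minus shTet1 was −0.0073 under median centring and −0.0067 under array weights. For Sptlc2, shTet1 minus shScr was −0.018 and −0.0097 under the same settings, and shTet2 minus shTet1 −0.039 under median centring. With each library left out in turn, the ranges were −0.033 to 0.15 for Ormdl1 and −0.22 to 0.00038 for Sptlc1 (shTet1 minus shScr), −0.059 to 0.16 for Sptlc1 (shTet2 minus shTet1), and for Sptlc2 −0.035 to 0.083 (shTet1 minus shScr) and −0.027 to 0.077 (shTet2 minus shTet1). The cause was not tested. Ormdl2 ranged from −1.49 to −1.30 between shTet2 and shScr over all alternatives, and Degs1 from −0.89 to −0.58 between shTet2 and shTet1. With 1 hairpin per gene and RNA alone measured, neither other hairpins nor protein or lipid levels are covered.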
